A study of Mus musculus with 16 samples.

Results

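Transcripts of 8 basement membrane genes were followed in bulk RNA-seq libraries of mouse knee joint cells. The genes encode the collagen IV chains Col4a1 and Col4a2, the laminin chains Lama4, Lamb1 and Lamc1, the linker proteins nidogen 1 (Nid1) and nidogen 2 (Nid2), and perlecan (Hspg2). They were taken by name from a table of 13733 genes, and all 8 were listed. The experiment compared uninjured joints (D0) with joints 7 days after injury (D7) in WT and Trem2-/- mice, with 4 libraries per combination, called WT D0, WT D7, Trem2-/- D0 or Trem2-/- D7. WT mice were male C57BL/6J and Trem2-/- mice were male C57BL/6J-Trem2em2Adiuj/J, a germline knockout line of the myeloid surface receptor Trem2. D7 joints had a rupture of the anterior cruciate ligament (ACL), made by a single tibial compression at 10 weeks of age, and D0 joints had none. The labels also carry an age of 16 weeks and a protocol for homogenised joints of diabetic mice, which the study's methods do not describe. Groups here follow the genotype and injury that the labels give for each library. The study's methods name D0 and D7 joints of both genotypes without assigning single libraries.

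Basement membranes are thin sheets of matrix that lie under endothelium and epithelium and wrap muscle fibres, fat cells, pericytes and Schwann cells. Laminin trimers and collagen IV trimers each polymerise into a network, nidogens and perlecan tie the networks together, and integrins and dystroglycan anchor them to cells. In a joint such sheets surround vessels, nerves, fat and muscle, while the synovial lining has no continuous one and cartilage cells hold some of the same proteins around them.

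The promoters are shown first. The 8 transcripts moved together in these libraries, and a link of that to promoter sequence was not tested. Of the 8 genes, 5 had a window of 250 bases before the start in the RefSeq table (build GRCm38.p6), and the windows of Lama4, Lamc1 and Nid2 were not used here. Col4a1 and Col4a2 lie head to head on chromosome 8, Col4a1 on the minus strand (11198423 to 11312826) and Col4a2 on the plus strand (11312805 to 11449287, GENCODE M21, GRCm38), and their first exons overlap by 22 bases. Both windows lie wholly within annotated exons of the pair and are not printed. For the other genes with a window, the stretch up to the first annotated exon is printed 5′ to 3′ on the plus strand, with GC boxes (GGGCGG, or CCGCCC on the other strand) in capitals. The stretches are chr4:137468553-137468768 for Hspg2, chr12:31265043-31265233 for Lamb1 and chr13:13437352-13437550 for Nid1.
Hspg2: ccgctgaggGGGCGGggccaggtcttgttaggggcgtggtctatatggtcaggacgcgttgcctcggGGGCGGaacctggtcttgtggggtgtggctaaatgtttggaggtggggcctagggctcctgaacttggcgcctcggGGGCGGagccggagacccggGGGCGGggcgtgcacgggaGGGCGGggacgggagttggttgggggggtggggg
Lamb1: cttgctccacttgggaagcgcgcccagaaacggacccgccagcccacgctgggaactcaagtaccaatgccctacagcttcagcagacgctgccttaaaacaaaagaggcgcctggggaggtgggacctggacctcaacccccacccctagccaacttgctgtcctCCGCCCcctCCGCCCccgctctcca
Nid1: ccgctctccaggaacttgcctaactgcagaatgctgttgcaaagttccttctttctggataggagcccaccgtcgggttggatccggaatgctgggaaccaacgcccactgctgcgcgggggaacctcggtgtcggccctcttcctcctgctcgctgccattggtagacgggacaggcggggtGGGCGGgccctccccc
The perlecan stretch holds 5 GC boxes, that of Lamb1 holds 2 and that of Nid1 holds 1. Over whole windows and both strands, a GC box was found in 4 of the 5 genes and in 32.7% of all 32851 windows. CCAAT was found in 4 of the 5 and in 33.9% of all windows. TATAAA was found in 0 of the 5 (12.4% of all windows), and the AP-1 letters TGANTCA in 0 of the 5 (6.75%). GC content ranged from 62.0% in Lamb1 to 74.4% in Col4a1, against a median of 52.4% over all windows. These motifs were chosen after the values were seen, and a match or its absence describes the letters of the window only.

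The libraries held 11567073 to 32867818 reads on listed genes (median 16399898), and 3 reads corresponded to between 0.101 and 0.250 CPM (read counts per gene, TMM-normalised and put on one scale for all libraries). The lowest value of any of the 8 genes was 19.2 CPM, and the lowest number of reads was 377, so all 8 passed the filter of at least 1 CPM in at least 4 libraries in every group. The filter left 13173 genes. In the knockout libraries Trem2 itself was at 1.80 ± 0.71 CPM at D0 and 4.27 ± 0.64 at D7, against 4.56 ± 1.40 and 16.8 ± 5.08 in WT (mean ± SD, n = 4). WT and Trem2-/- libraries did not overlap for Trem2 at D7 and overlapped at D0. The labels number the replicates without saying that each came from its own mouse, and p-values here measure the spread between libraries, which may be partly technical. Among WT D0 libraries, replicate 2 was the lowest for 8 of the 8 genes, and among Trem2-/- D0 libraries replicate 4 was the highest for 8 of 8.

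Injury was followed by higher levels of all 8 transcripts in either genotype. Together they took 0.257% to 0.667% of reads in WT D0, 0.916% to 1.14% in WT D7, 0.273% to 0.597% in Trem2-/- D0 and 1.02% to 1.33% in Trem2-/- D7 libraries. In limma's test on log2(CPM + 1), 8 of 8 genes were called higher at D7 in WT (unadjusted p under 0.05 and a log2 fold change over 0.32), where 19.3% of the 13173 genes were called higher. In Trem2-/- joints 8 of 8 were called higher, where 26.5% of all genes were. With a Benjamini-Hochberg adjusted p under 0.05 in limma, 8 of 8 were higher in WT (15.9% of all genes) and 8 of 8 in Trem2-/- (26% of all genes). With only the WT libraries in the fit, 7 of 8 kept an adjusted p under 0.05 in WT, and Nid1 was at 0.0604. Every D7 library was above every D0 library of its genotype for 8 of 8 genes in WT, where 12.9% of all genes showed this, and for 8 of 8 in Trem2-/-, where 26.1% did. The median log2 fold change of the 8 was 1.53 in WT and 1.88 in Trem2-/-, against -0.04 over all genes in each genotype. In these bulk libraries more cells of a type and more RNA per cell cannot be told apart.

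**Figure D1:**
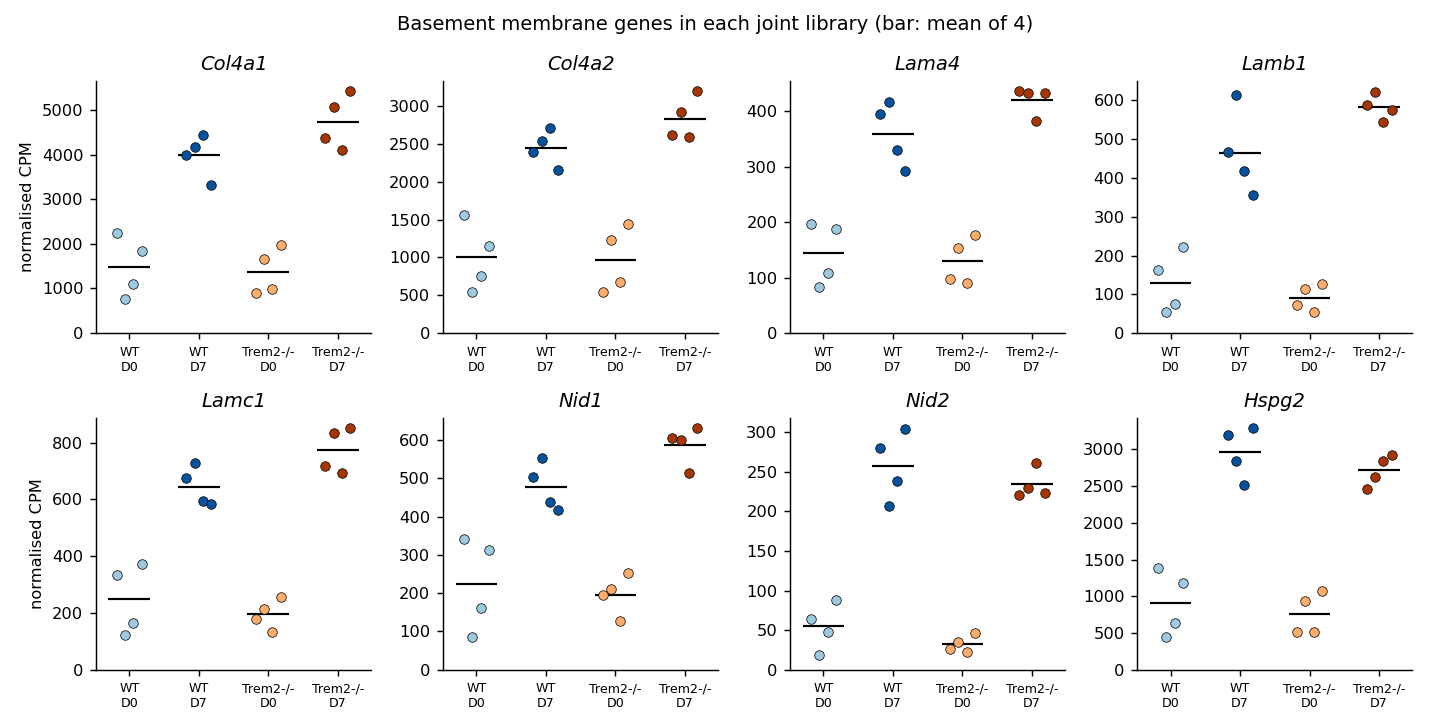
Normalised CPM of each gene in the 16 libraries, with points for single libraries and bars for the mean of 4, on linear axes that start at 0. For each of the 8 genes the D7 points lie above the D0 points of the same genotype, and the 4 D0 libraries are more spread out relative to their mean than the 4 D7 libraries.

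Collagen IV forms the covalently linked net of the basement membrane, and the chains encoded by Col4a1 and Col4a2 assemble into one trimer. Col4a1 was at 2250.1, 762, 1107 and 1834 CPM in WT D0 and at 4003, 4163, 4443 and 3317 CPM in WT D7. In Trem2-/- joints it was at 893, 1661, 988 and 1969.6 CPM at D0 and at 4371, 5066, 4107 and 5418 CPM at D7. The lowest D7 library of either genotype was thus above the highest D0 library, and Trem2-/- and WT libraries overlapped on each day. The fitted change was 2.90-fold in WT (log2 1.53, SE 0.33, limma with Benjamini-Hochberg adjusted p = 0.0044) and 3.61-fold in Trem2-/- (log2 1.85, SE 0.33, adjusted p = 0.0003). By mean level Col4a1 ranked 36 of all listed genes in WT D0 and 19 in WT D7, and 42 and 16 in Trem2-/-.

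Col4a2 was at 1558, 544, 761 and 1146 CPM in WT D0 and at 2395, 2534, 2715 and 2151 CPM in WT D7. Its Trem2-/- values were 545, 1225, 673 and 1437 CPM at D0 and 2617, 2928, 2590.5 and 3199.6 CPM at D7. The libraries followed the order of Col4a1, with WT D0 replicate 2 lowest and no overlap between days. The rise was 2.63-fold in WT (log2 1.40, SE 0.32, limma adjusted p = 0.0071) and 3.15-fold in Trem2-/- (log2 1.65, SE 0.32, adjusted p = 0.00066).

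Laminin trimers are made of an alpha, a beta and a gamma chain, and Lama4, Lamb1 and Lamc1 encode the chains of a laminin typical of vessel walls. Lama4, the alpha chain, was at 197, 83.5, 108 and 187 CPM in WT D0 and at 396, 417, 330.3 and 293 CPM in WT D7. Trem2-/- libraries held 96.8, 153, 90.2 and 176 CPM at D0 and 436, 432, 382 and 432 CPM at D7. Days did not overlap in either genotype, and replicate 3 was the lowest of the Trem2-/- D7 libraries while the others lay between 432 and 436 CPM. Lama4 rose 2.62-fold in WT (log2 1.39, SE 0.26, limma adjusted p = 0.0023) and 3.37-fold in Trem2-/- (log2 1.75, SE 0.26, adjusted p = 8.3e-05).

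Lamb1, the beta chain, was at 164, 55.3, 74.3 and 223 CPM in WT D0 and at 466, 615, 419 and 357 CPM in WT D7. In Trem2-/- it was at 71.3, 113, 55.1 and 125 CPM at D0 and at 588, 622, 544 and 577 CPM at D7. WT D0 was its most variable group (coefficient of variation 60.7%) and Trem2-/- D7 its least variable (5.51%), and D0 and D7 were fully apart. The change was 4.08-fold in WT (log2 2.03, SE 0.36, limma adjusted p = 0.0017) and 6.67-fold in Trem2-/- (log2 2.74, SE 0.36, adjusted p = 3.9e-05).

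Lamc1, the gamma chain found in most laminins, was at 334, 121, 163 and 374 CPM in WT D0 and at 674, 727, 595 and 584 CPM in WT D7. Its Trem2-/- levels were 179, 215, 131 and 257 CPM at D0 and 718, 835, 692 and 851 CPM at D7. All D7 values exceeded all D0 values, and the lowest Trem2-/- D7 library lay inside the range of WT D7. Lamc1 rose 2.87-fold in WT (log2 1.52, SE 0.30, limma adjusted p = 0.0027) and 4.04-fold in Trem2-/- (log2 2.01, SE 0.30, adjusted p = 7.7e-05).

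Nidogens bind the laminin gamma chain and collagen IV and join the networks. Nid1 was at 342, 84.4, 161 and 314 CPM in WT D0 and at 503, 554, 439.5 and 417 CPM in WT D7. In Trem2-/- libraries Nid1 was at 194, 212, 127 and 253 CPM at D0 and at 607, 601, 515 and 631 CPM at D7. Its WT change was the smallest of the 8, at 2.42-fold (log2 1.28, SE 0.34, limma adjusted p = 0.0129), and D0 and D7 libraries did not overlap. In Trem2-/- it was 3.07-fold (log2 1.62, SE 0.34, adjusted p = 0.001).

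Nid2, the second nidogen and the scarcest of the 8 transcripts at D0, was at 63.9, 19.2, 48.1 and 87.6 CPM in WT D0 and at 279.5, 207, 238 and 304 CPM in WT D7. Trem2-/- values were 26.2, 34.9, 22.5 and 46.3 CPM at D0 and 221, 229.9, 262 and 223 CPM at D7. The days were widely apart, and WT D7 spanned the Trem2-/- D7 values. Nid2 had the largest change of the 8, 5.22-fold in WT (log2 2.39, SE 0.34, limma adjusted p = 0.00063) and 7.26-fold in Trem2-/- (log2 2.86, SE 0.34, adjusted p = 2.1e-05). It ranked 66 from the highest log2 fold change of 13173 genes in WT, and the other 7 ranked 121 to 451. Of its exon bases, 8.45% overlap Rtraf (2700060E02Rik in the table) on the opposite strand, which was at 51.2 ± 3.40 CPM in WT D0, 64.0 ± 6.26 in WT D7, 50.7 ± 1.32 in Trem2-/- D0 and 79.9 ± 4.63 in Trem2-/- D7. Whether counting used strand is not given in the sources used here, and the part of shared reads in the Nid2 values was not tested.

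Perlecan, the heparan sulfate proteoglycan encoded by Hspg2, binds growth factors as well as laminin and nidogen, and cartilage cells make it too. It was at 1381, 451, 633 and 1183 CPM in WT D0 and at 3204, 2849, 2518 and 3290.4 CPM in WT D7. In Trem2-/- joints it was at 512, 936, 516 and 1069 CPM at D0 and at 2468, 2630.0, 2847 and 2921 CPM at D7. D0 and D7 did not overlap, and the Trem2-/- D7 mean was 0.92 times the WT D7 mean with overlapping libraries. Hspg2 rose 3.56-fold in WT (log2 1.83, SE 0.32, limma adjusted p = 0.0017) and 3.77-fold in Trem2-/- (log2 1.92, SE 0.32, adjusted p = 0.00021).

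Levels of different genes were set against each other per kb of exon. In WT D7 the means were 533 CPM per kb for Col4a1, 370.0 for Col4a2, 207 for Hspg2, 78.0 for Lamc1, 68.9 for Nid1, 49.7 for Nid2, 46.8 for Lamb1 and 29.7 for Lama4. In WT D0 the order from the top was 199 for Col4a1, 151 for Col4a2, 63.8 for Hspg2, 32.4 for Nid1, 30.0 for Lamc1, 13.0 for Lamb1, 11.9 for Lama4 and 10.6 for Nid2. Nid2 and Lamb1 differed at WT D7 by less than their SDs, which were 8.36 and 11.1 CPM per kb, while Lamc1 and Nid1, with SDs of 8.23 and 8.95, differed by slightly more than either. Lama4 and Lamb1 have exon unions of 12068 and 9917 bases but longest transcripts of 6046 and 5784, so their levels per kb rise to 59.4 and 80.2 at WT D7 when the longest transcript is used.

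Spread between libraries was larger before injury than after it. Over the 8 genes the coefficient of variation was 39.2% to 60.7% in WT D0, 26.7% to 44.2% in Trem2-/- D0, 9.70% to 23.7% in WT D7 and 5.51% to 12.8% in Trem2-/- D7. The highest WT D0 library held 2.35 to 4.57 times the lowest, and the highest Trem2-/- D7 library 1.14 to 1.32 times the lowest. The genes moved together within groups. Pearson's r between pairs of the 8 averaged 0.97 over the 16 libraries and 0.88 after the group means were subtracted, where it ran from 0.74 for Col4a2 with Nid2 to 0.985 for Col4a1 with Col4a2. The points share the libraries and their scaling, and these values are a description.

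The comparison of genotypes asked whether loss of Trem2 changed these transcripts. At D7 limma called 0 of 8 genes, where 5.72% of all genes were called in either direction, and 0 of 8 had an unadjusted p under 0.05, also by edgeR and by voom. Estimates ran from log2 -0.12 for Nid2 and Hspg2 to 0.35 for Lamb1, with 6 of 8 above 0 and limma adjusted p-values from 0.875 to 0.957. The 95% intervals of the folds reached from 0.56 to 2.18 over the 8 genes, so the levels are not shown to be alike. In 0 of 8 were the D7 libraries of the genotypes fully apart, which was so for 8.33% of all genes. Lamb1 showed the largest difference, with a Trem2-/- mean of 582 ± 32.1 CPM against 464 ± 110 in WT (SD, n = 4). When the D0 libraries were left out of the fit, Lamb1 was called at an unadjusted p = 0.0403 in limma, which makes 1 of 8 where that fit called 10.4% of all genes, so its call depends on which libraries estimate the spread.

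At D0 limma called 0 of 8 (2.15% of all genes), and 0 of 8 genes had fully separate genotypes (0.979% of all genes). All 8 estimates were below 0, from -0.60 for Nid2 to -0.04 for Nid1 on the log2 scale, each with a limma adjusted p of 0.9996 (0 of 8 at an unadjusted p under 0.05, 0 by voom and 1 by edgeR). Nid2 was at 54.7 ± 28.7 CPM in WT and 32.5 ± 10.6 in Trem2-/- joints, and edgeR on recovered reads called it at an unadjusted p = 0.0373 with log2 -0.75, where edgeR called 3.54% of all genes. Single libraries moved this comparison. Without WT D0 replicate 2, the Nid2 estimate was -1.02 (unadjusted p = 0.00043) and 9.34% of all genes were called, without Trem2-/- D0 replicate 4 it was -0.78 (unadjusted p = 0.0427) and 4.11% were, and without WT D0 replicate 4 it was -0.31 (unadjusted p = 0.342) and 0.812% were. The interaction, which asks whether the injury response differed between genotypes, gave 0 of 8 calls in limma, edgeR and voom, where limma called 7.79% of all genes. Its estimates ran from 0.08 for Hspg2 to 0.71 for Lamb1 on the log2 scale, with limma adjusted p-values from 0.737 to 0.968. Without WT D0 replicate 2, the library lowest for 8 of 8 genes, 4 of 8 were called for the interaction (Lamb1, Lamc1, Nid1 and Nid2), where 17% of all genes were, and the count with a limma adjusted p under 0.05 was 0.

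**Figure D2:**
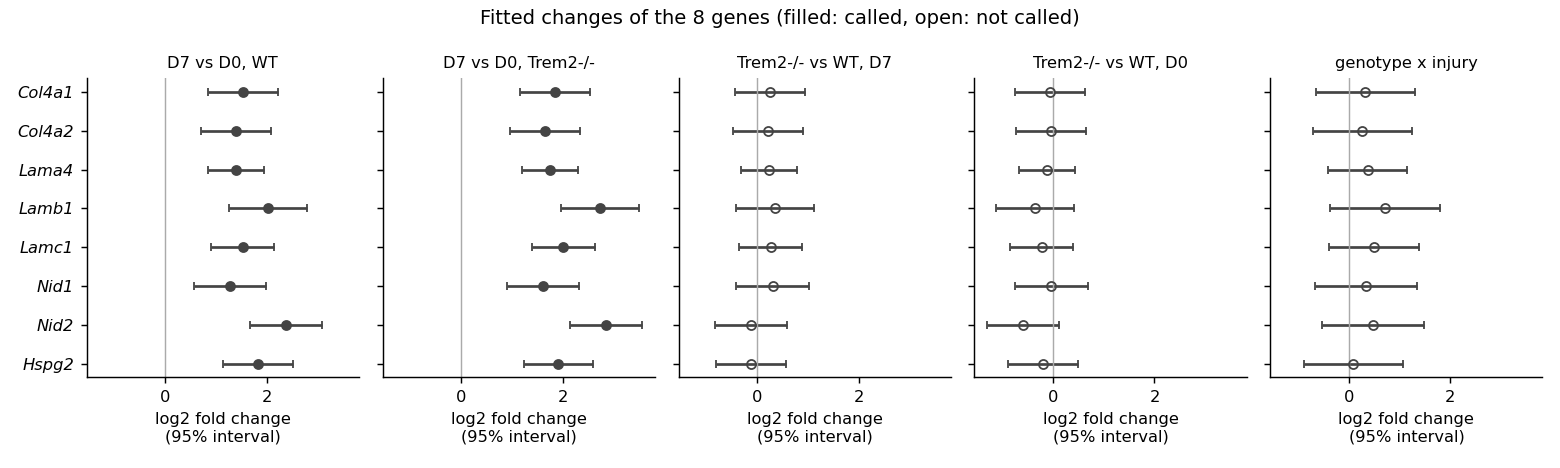
Fitted log2 fold changes of the 8 genes in each comparison, with bars for 95% intervals, filled points for genes called and open points for genes not called. Intervals of the injury comparisons lie above 0 for 8 of 8 genes in each genotype, and those of the genotype comparisons and the interaction include 0 for 8 of 8.

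Partner genes did not all keep their proportions. The ratio of Col4a1 to Col4a2 per kb of exon was 1.31 ± 0.08 in WT D0 and 1.44 ± 0.05 in WT D7, and 1.29 ± 0.11 and 1.48 ± 0.05 in Trem2-/- (SD, n = 4), with D0 and D7 libraries overlapping in each genotype (exact permutation p = 0.0571 in each, adjusted 0.098). Lamb1 to Lamc1 rose from 0.417 ± 0.05 to 0.595 ± 0.08 in WT and from 0.382 ± 0.05 to 0.631 ± 0.05 in Trem2-/-, with no overlap between days (exact permutation p = 0.0286 in each). In WT the gap was narrow, with the highest D0 library at 0.497 and the lowest D7 library at 0.509. Nid1 to Nid2 went from 3.11 ± 0.67 to 1.43 ± 0.41 in WT and from 4.58 ± 0.66 to 1.89 ± 0.29 in Trem2-/-, again with no overlap (exact permutation p = 0.0286 in each).

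Single libraries show the nidogen shift. The ratio of Nid1 to Nid2 was 3.98, 3.28, 2.49 and 2.67 in WT D0 and 1.34, 2.00, 1.38 and 1.02 in WT D7. In Trem2-/- joints it was 5.52, 4.53, 4.21 and 4.06 at D0 and 2.05, 1.95, 1.47 and 2.10 at D7. All 4 Trem2-/- D0 libraries were above all 4 WT D0 libraries, a difference of 0.57 on the log2 scale (SE 0.18, exact permutation p = 0.0286), while the genotypes overlapped at D7 (0.43, SE 0.23, exact permutation p = 0.0857). The 12 ratio tests between 2 groups were two-sided over 70 assignments of 8 libraries, for which 0.0286 is the smallest p. After adjustment over the 12 tests, those at the smallest p had 0.0686. Interactions of genotype and injury for the 3 ratios were tested over 4900 assignments, with exact permutation p-values of 0.467, 0.209 and 0.709.

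**Figure D3:**
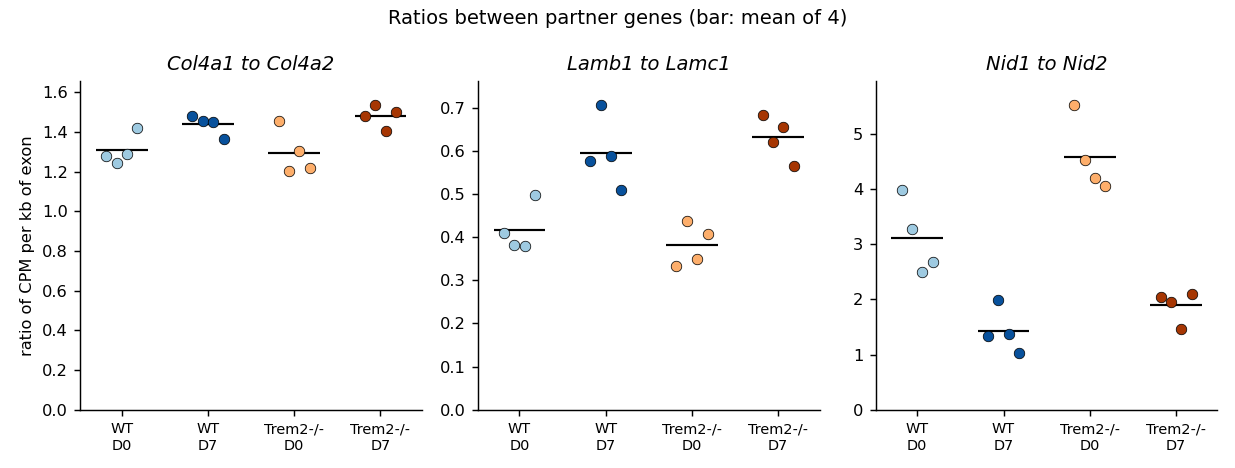
Ratios of CPM per kb of exon between partner genes in the 16 libraries, with points for single libraries and bars for the mean of 4, on axes that start at 0. The Nid1 to Nid2 ratio is lower and the Lamb1 to Lamc1 ratio higher in every D7 library than in every D0 library of the same genotype.

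Other genes of the basement membrane were read from lists chosen by function. Of 11 further collagen IV and laminin chains tested, 1 was called higher and 0 lower at D7 in WT, with a median log2 fold change of 0.21. The 1 gene was Lamb3, a beta chain of epithelial laminin (3.28 ± 0.73 to 5.94 ± 1.17 CPM, log2 0.70, limma adjusted p = 0.0299). In Trem2-/- joints 2 of the 11 were called higher and 2 lower (median 0.09). The most abundant of these chains, named after their values were seen, were Lamb2 at 438 ± 182 CPM in WT D0 and 477 ± 57.9 in WT D7 (log2 0.21, SE 0.28, limma adjusted p = 0.598) and Lama5 at 196 ± 77.3 and 242 ± 23.4 CPM (log2 0.37, SE 0.26, adjusted p = 0.288). Col4a3, Col4a4 and Col4a6, collagen IV chains of kidney, lung and some epithelia, had means of 1.53 to 4.67 CPM in the 4 groups. Col4a5, also named after its values were seen, was higher, at 23.0 ± 8.46 CPM in WT D0 and 35.6 ± 8.45 in WT D7. Its WT change was log2 0.65 (SE 0.36, limma adjusted p = 0.183). In Trem2-/- joints Col4a5 was at 26.0 ± 12.3 CPM at D0 and 43.9 ± 5.38 at D7.

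Of 20 other basement membrane proteins tested, 10 were called higher and 0 lower in WT (7 with a limma adjusted p under 0.05), and 12 higher and 1 lower in Trem2-/- (11 and 1). The largest changes were in Col18a1, the source of endostatin (247 ± 158 to 1055 ± 163 CPM in WT, log2 2.30, SE 0.35, limma adjusted p = 0.00082), Matn2, a matrilin (63.0 ± 49.5 to 207 ± 56.4 CPM, log2 1.99), and Col15a1, a collagen that lies beside vessels and muscle fibres (374 ± 216 to 1284 ± 89.5 CPM, log2 1.98). In Trem2-/- these had log2 changes of 2.87, 3.13 and 2.35. Of 12 receptor genes, 7 were called higher and 0 lower in WT (5 adjusted) and 7 higher and 1 lower in Trem2-/-, led in WT by Sdc1, a heparan sulfate proteoglycan of the cell surface (log2 1.12), Dag1, which encodes dystroglycan (0.94), and Itga2, a collagen-binding integrin chain (0.89). Itga2 was the receptor gene called for the interaction (log2 0.79, SE 0.31, unadjusted p = 0.0214, limma adjusted p = 0.579). That is 1 of 12, where 7.79% of all genes were called.

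Enzymes and chaperones that hydroxylate, fold, export and crosslink collagen rose as a list. Of 17 tested, 17 were called higher in WT and 17 in Trem2-/-, all with a limma adjusted p under 0.05, and the medians were 1.65 and 1.96. These proteins serve fibrillar collagens as well as collagen IV. The largest WT changes were in P4ha3 and P4ha2, prolyl hydroxylase subunits (log2 2.98 and 2.77), and Plod2, a lysyl hydroxylase (2.84, from 145 ± 131 to 742 ± 73.5 CPM). Ppib, a prolyl isomerase, was called higher in Trem2-/- than in WT at D7 (142 ± 7.23 against 108 ± 12.9 CPM, log2 0.39, SE 0.13, unadjusted p = 0.00772, limma adjusted p = 0.524). Ppib, Colgalt1, which adds galactose to hydroxylysine, and Sec23a, a coat protein of export vesicles, were called for the interaction (log2 0.49, 0.60 and 0.47), with limma adjusted p-values of 0.579, 0.579 and 0.61. These calls are 1 of 17 at D7, where 5.72% of all genes were called, and 3 of 17 for the interaction, where 7.79% were.

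Of 12 proteases and heparanase genes that act on basement membranes, 6 were called higher and 1 lower in WT, and 7 higher and 1 lower in Trem2-/-. Mmp14, a membrane-bound metalloproteinase, went from 243 ± 219 to 859 ± 224 CPM in WT (log2 2.18, SE 0.44, limma adjusted p = 0.0036) and from 97.9 ± 30.1 to 1314 ± 220 CPM in Trem2-/- (log2 3.78). Mmp2, a gelatinase that cleaves collagen IV, had log2 changes of 1.87 and 3.15, and Mmp19 of 1.63 and 1.90. Mmp14 was called for the interaction at log2 1.61 (SE 0.63, unadjusted p = 0.0214, limma adjusted p = 0.579). It was the 1 call among the 12 genes, where 7.79% of all genes were called.

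**Figure D4:**
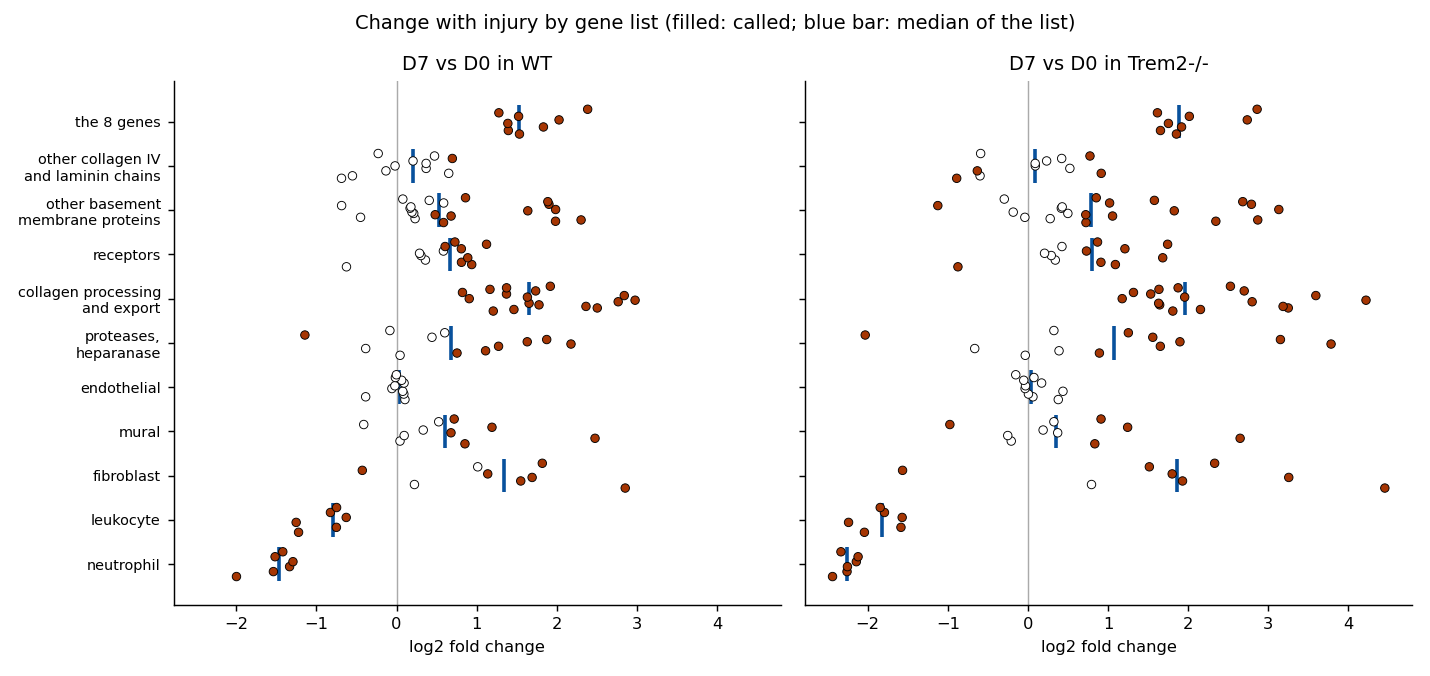
Log2 fold changes from D0 to D7 of single genes by list in WT and Trem2-/- joints, with filled points for genes called and blue bars for list medians. The 8 genes have medians of 1.53 and 1.88, the 10 endothelial markers 0.03 in each genotype, and the 6 neutrophil markers -1.47 and -2.25.

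Markers of the cells that make basement membranes were not uniform. Of 10 endothelial markers, 0 were called in WT and 0 in Trem2-/- (limma, 0 with an adjusted p under 0.05), and Pecam1, an adhesion molecule of endothelium, was at 646 ± 283, 655 ± 132, 667 ± 199 and 731 ± 105 CPM at WT D0, at WT D7, at Trem2-/- D0 and at Trem2-/- D7. Their summed level was 1628 to 4324 CPM in WT D0 and 2044 to 3096 in WT D7. Of 10 mural cell markers, 5 were called higher and 0 lower in WT and 4 higher and 1 lower in Trem2-/-, with Rgs5, a pericyte gene, at 137 ± 59.7 and 213 ± 36.9 CPM in WT (log2 0.72, limma adjusted p = 0.0613). Of 8 fibroblast and lining markers, 5 were called higher and 1 lower in WT and 6 and 1 in Trem2-/-, and their sum went from 7295 to 30156 CPM in WT D0 to 43485 to 66262 in WT D7. Col1a1 made up most of the sum at D7, with 7543 ± 7510 CPM in WT D0 and 39174 ± 9149 in WT D7. Dcn (log2 0.22) and Prg4 (log2 1.01) were not called in WT. Pdgfra, a fibroblast receptor, was at 69.3 ± 38.2 and 137 ± 24.7 CPM (log2 1.14, limma adjusted p = 0.034).

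Chondrocyte markers rose in 6 of 6 in each genotype (medians 3.93 and 5.26), and their sum was 667 to 12178 CPM in WT D0 and 27924 to 70996 in WT D7. In Trem2-/- it was 1002 to 3817 CPM at D0 and 26119 to 40156 at D7. At D0, 3 of 6 were called lower in Trem2-/- than in WT and 0 higher, where 2.15% of all genes were called. In the same comparison 2 of 8 fibroblast markers were called lower and 1 higher, and 1 of 12 protease and heparanase genes lower. Of these calls, 0 had a limma adjusted p under 0.05. Leukocyte genes were called lower in 6 of 6 in each genotype (medians -0.79 and -1.82), with Ptprc, which encodes CD45, at 514 ± 151, 305 ± 95.7, 633 ± 145 and 173 ± 27.3 CPM in the groups as ordered above. At D7, 5 of 6 leukocyte genes and 3 of 6 macrophage markers (Adgre1, Cd68 and Csf1r) were called lower in Trem2-/- than in WT, and 0 of these had a limma adjusted p under 0.05. For the interaction, 5 of 6 leukocyte genes and 3 of 6 macrophage markers were called, all below 0, and 0 after adjustment. Of the 8 fibroblast markers, 1 (Pi16) was called lower in Trem2-/- than in WT at D7. For the interaction 1 fibroblast marker was called higher and 1 lower, and after adjustment these fibroblast calls numbered 0. Over all genes, 5.72% were called at D7 and 7.79% for the interaction. Neutrophil markers were called lower in 6 of 6 in each genotype, with sums of 10061 to 21945 CPM in WT D0 and 2879 to 10212 in WT D7. With injury, macrophage markers were called higher in 5 of 6 in WT, and in Trem2-/- 4 were higher and 1 lower. Muscle markers were called lower in 3 of 7 in WT and 6 of 7 in Trem2-/-, Schwann cell markers in 1 of 6 and 4 of 6, and adipocyte markers in 2 of 3 and 1 of 3. Over all 13173 genes, 2395 were called lower with injury in WT and 3680 in Trem2-/-. The Schwann cell count in WT and the adipocyte count in Trem2-/- lie near these shares. No marker of these lists was at 0 throughout a group, and the part of these shifts in the rise of the 8 genes was not tested. For these cells the study's methods refer to its single-cell isolation, which includes a magnetic separation on CD45, and do not say which fraction entered the bulk libraries.

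**Figure D5:**
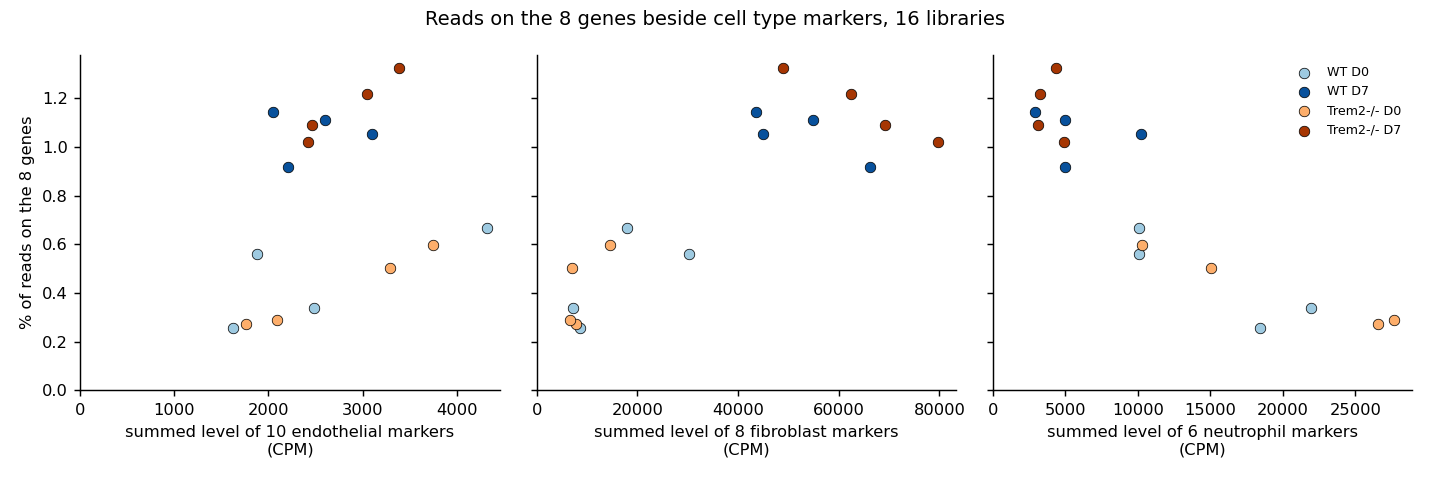
Percent of reads on the 8 genes against the summed CPM of endothelial, fibroblast and neutrophil markers, with a point for each of the 16 libraries colored by group. All 8 D7 libraries lie between 0.916% and 1.33%, above all D0 libraries, at endothelial sums within the D0 range. At D7 most of the fibroblast sum comes from Col1a1.

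Over the 16 libraries the mean Pearson r of the 8 genes was 0.31 with the mean of the endothelial list, 0.81 with mural, 0.94 with fibroblast, -0.90 with leukocyte and -0.92 with neutrophil genes. After subtraction of group means the values were 0.61, 0.77, 0.73, -0.64 and -0.67. Among 10544 other genes averaging 5 CPM or more, those most like the 8 over the 16 libraries were Col15a1, A4galt, Cttn, Itgb1 and Myof (mean r 0.97 to 0.98). With group means subtracted they were A4galt, Itgb1, Smad5, Lmna and Cttn (0.91 to 0.93). All these values are descriptions over libraries that share scaling and depth.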

How the data were processed

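Bulk RNA-seq of joint cells comprised 16 libraries, 4 per group. The authors converted base calls with bcl2fastq, aligned reads to mm10 with STAR, counted them with featureCounts and normalised them with edgeR's TMM method, and the deposited signal values are CPM scaled with each library's TMM factor. Versions, annotation, strand setting and the filter on low counts are not given in the sources used here. Of the values, 100% were whole multiples of 1 read (tolerance 0.01 reads), so reads were recovered. Fcgr1, listed 2 times with identical values, was counted once. Replicate pairs differed by more than sampling noise (chi-square at least 10.8 per degree of freedom).

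Values were compared on the log2(CPM + 1) scale by limma 3.58.1 (R 4.3.3, lmFit and eBayes with a trend) for the 13173 genes reaching 1 CPM in 4 or more libraries, with the 4 groups as one factor, and p-values were adjusted over all genes by Benjamini-Hochberg. Folds are on that scale, which understates changes of low genes. Following the study's methods, calls needed an unadjusted p under 0.05 and a log2 fold change over 0.32 in size. edgeR 4.0.16 quasi-likelihood and voom on recovered reads were alternatives. Ratios per kb of exon were tested by exact permutation. Gene models are GENCODE M21 (13428 of 13733 symbols matched). The 8 genes, gene lists and tests were chosen with earlier results of these data known. Besides the 8 genes, named genes are the 3 with the largest WT change per functional list among those called, genes of these lists called for genotype at D7 or the interaction (up to 4 per list), Pecam1, Rgs5, Pdgfra and Ptprc, and the 5 most alike genes. Single-cell and staining experiments of the study were not analysed here.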

Additional observations from a re-analysis of the deposited data

Results flagged for a closer look

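Lama4 in Trem2-/- D7 replicate 3 stood apart from the other 3 libraries of its group, at 382 CPM against 432 to 436 CPM. Its gap to the nearest library was 0.914 of the group's whole range, above Dixon's 95% critical value for 4 samples. This was the 1 flag among 48 groups of values tested, and chance flags about 1 in 20 groups. The same library was the lowest of its group for 6 of the 8 genes and the highest for Nid2. Without it, as with it, the rise of Lama4 with injury was called in Trem2-/- joints.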

How the results depend on the processing

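With injury, 8 of 8 genes were called higher in each genotype under every alternative run: pseudocounts of 0.1 and 5, no filter, genes averaging 5 CPM or more, quantile scaling, median-of-ratios size factors, only the groups compared, eBayes without trend, edgeR, voom, a fold change over 1.5, and each library left out. With an adjusted p under 0.05, 7 of 8 were higher in WT when the fit held only the groups compared (Nid1 was lost, adjusted p = 0.0604), and 8 of 8 in each genotype under the other alternatives. Whether the replicate numbers pair the libraries is not settled (same-number correlations -0.51 to 0.41, 7 of 16 libraries nearest to their own number). These correlations were 0.05 to 0.41 for WT D0 with WT D7 and -0.20 to 0.11 for Trem2-/- D0 with Trem2-/- D7. With the replicate block the counts stayed at 8, 8, 0, 0 and 0 for injury in WT, injury in Trem2-/-, genotype at D7, genotype at D0 and the interaction. At D7, 1 gene (Lamb1) was called between genotypes when the fit held only the groups compared. At D0, 1 gene (Nid2) was called by edgeR. With single libraries left out, 0 to 1 genes were called at D0 of 107 to 1231 over all genes (Nid2 without WT D0 replicate 2 or Trem2-/- D0 replicate 4) and 0 to 4 for the interaction (4 without WT D0 replicate 2). Directions at D0 then turned for Col4a1 (-0.35 to 0.17), Col4a2 (-0.31 to 0.20), Lama4 (-0.35 to 0.055), Lamc1 (-0.52 to 0.019), Nid1 (-0.44 to 0.23) and Hspg2 (-0.50 to 0.042), and for the interaction of Hspg2 (-0.16 to 0.37) and the D0 difference in the Col4a1 to Col4a2 ratio (-0.076 to 0.021), all on the log2 scale. Other ratio results kept their direction but were weaker or stronger in some fits. Col4a1 to Col4a2 with injury ran from log2 0.115 to 0.179 in WT and from 0.165 to 0.256 in Trem2-/-. It was unchanged in 15 of 16 fits in each genotype and stronger in the remaining fit. Lamb1 to Lamc1 with injury in WT (log2 0.43 to 0.60) was unchanged in 10 of 16 fits. Nid1 to Nid2 with injury in WT (-1.305 to -0.98) was unchanged in 13 of 16. Its genotype difference at D0 (0.48 to 0.70) was unchanged in 12 of 16. By longest transcript, the mean ratios at WT D7 were 1.58 for Col4a1 to Col4a2, 0.940 for Lamb1 to Lamc1 and 1.54 for Nid1 to Nid2, against 1.44, 0.595 and 1.43 by exon union. Over all genes, calls at a fold change over 1.5 fell to 2985 for injury in WT (4933 otherwise), 340 between genotypes at D7 (753), 131 at D0 (283) and, in the interaction, 635 (1026). With only the groups compared there were 1366 calls at D7, 149 at D0 and 1736 genes with an adjusted p under 0.05 for injury in WT (3752 otherwise), and at D0 edgeR made 466 calls and a pseudocount of 5 made 164. Adjusted calls between genotypes at D7 numbered 5 with only the groups compared and 1 with a pseudocount of 5, eBayes without trend or voom. With single libraries left out they numbered 0 to 1. The causes were not tested. The lowest value of the 8 genes in a library was 377 reads.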

Other observations

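Some genes of the same lists that the rule did not name had large values, and they are given here after their values were seen. Sparc, which encodes a collagen IV-binding matrix protein, was at 2243 ± 1457 CPM in WT D0 and 7002 ± 1594 in WT D7 (log2 1.89, SE 0.41, limma adjusted p = 0.0049), and had a log2 change of 2.68 in Trem2-/-. Pxdn and Loxl2, enzymes that crosslink collagen IV, rose by 1.74 and 2.50 on the log2 scale in WT (limma adjusted p = 0.0043 and 0.00062) and by 2.70 and 3.25 in Trem2-/-. Mmp9, a gelatinase abundant in neutrophils, went the other way and fell by 1.14 on the log2 scale in WT (SE 0.38, limma adjusted p = 0.034) and by 2.03 in Trem2-/-. Its WT level was 713 ± 272 CPM at D0 and 326 ± 142 at D7. Cspg4, a mural cell proteoglycan that other stromal cells also make, rose by 2.48 on the log2 scale in WT, while Myh11, a smooth muscle myosin, was at 435 ± 131 and 325 ± 76.6 CPM (log2 -0.41, limma adjusted p = 0.402).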
